A study of Mus musculus with 2 samples.

Results

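The 8 genes described here encode proteins that mark the megakaryocyte and its product, the platelet: the granule chemokines Pf4 and Ppbp, the 4 subunits of the GPIb-IX-V receptor (Gp1ba, Gp1bb, Gp9 and Gp5), the collagen receptor Gp6 and the granule membrane receptor Treml1. They were taken from a list of gene names that was chosen with earlier results of these data known. All 8 were found among the 43346 gene rows with an Ensembl identifier. RNA was sequenced from whole lung of B6NCrl mouse embryos at 16.5 days. The series holds 1 group of 2 libraries, numbered as biological replicates 1 and 2, each from a pool of healthy embryos of both sexes. Replicate 2 pooled lungs of 41 embryos, and the number behind replicate 1 is not given in the labels, nor whether the pools came from separate litters. Both libraries cite the same donor record, and how independent the pools behind each SD were is not stated. No treatment or engineered allele is named. With a single group there is no comparison between conditions, so the values below are levels, with the spread between the replicates (mean ± SD, n = 2) and no test.

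Megakaryocytes are large polyploid cells of the blood lineage that shed platelets into the circulation. In the adult mouse lung they are also known to reside in the tissue, whereas in the fetus the liver is their main source. GPIb-IX-V binds von Willebrand factor on damaged vessel walls, GPVI (encoded by Gp6) then signals on contact with collagen, and activated platelets empty granules that hold chemokines such as platelet factor 4. Whole lung holds the blood in its vessels as well as its own cells. A lower level in such bulk RNA could come from fewer cells of a type or from less RNA per cell, and these cannot be told apart.

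Replicate 1 held 38852470 expected counts and replicate 2 held 27145411. The lung genes Sftpc, Nkx2-1, Ager, Tcf21, Foxf1 and Epcam all had over 60 TPM in both libraries. TPM, the unit in which transcripts of a library add up to a fixed total, divides the reads of a gene by its effective length. On this scale levels can be compared between genes. Of the 8 platelet genes, 6 were at 1 TPM or more in both replicates, against 61.5% of the 21474 genes coding for protein. Together the 8 genes had 70.7 TPM in replicate 1, against 86.3 TPM in replicate 2, a mean of 78.5 ± 11.0 TPM. Pf4 alone made up 78.5% of that sum in replicate 1 and 78.4% in replicate 2. The median over the 8 genes was 2.21 ± 0.0884 TPM, below the median of 4.87 ± 0.219 TPM over genes coding for protein.

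**Figure D1:**
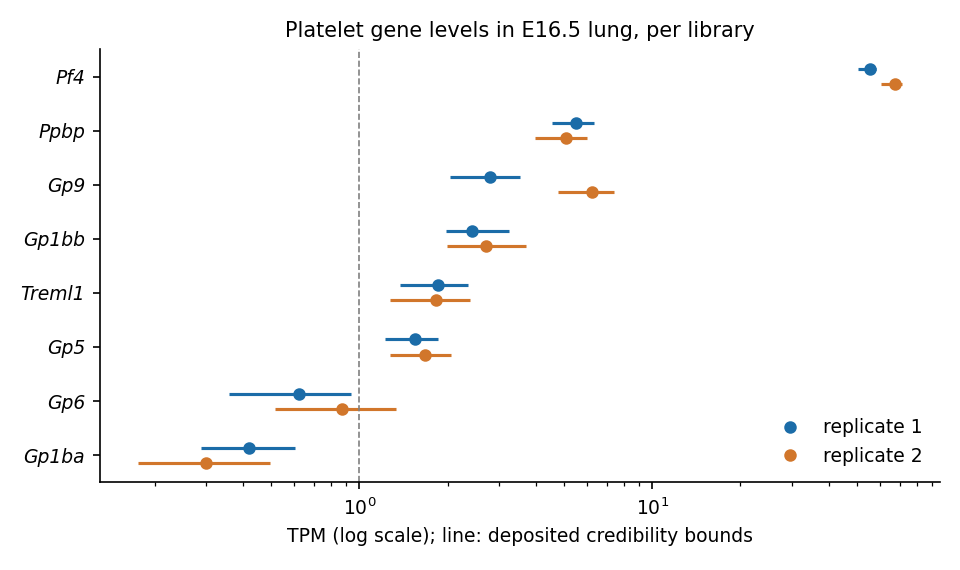
TPM of each platelet gene (log axis) in replicate 1 and replicate 2 of the lung libraries, with lines for the credibility bounds deposited with each value and a dashed line at 1 TPM. Pf4 stands apart at 55.55 and 67.60 TPM, Gp6 and Gp1ba lie under 1 TPM in both libraries, and the bounds of the replicates are separate for Pf4 and Gp9. Bounds apart and lower in replicate 1 were seen in 6.71% of genes with a mean of 1 TPM or more.

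The order by mean TPM was Pf4, Ppbp, Gp9, Gp1bb, Treml1, Gp5, Gp6 and Gp1ba. In 6 of the 7 neighbouring pairs the lower replicate of the higher gene exceeded the higher replicate of the lower gene. The exception was Ppbp and Gp9, whose replicate values overlapped. Several of the other gaps were narrow: the lower replicate of Gp9 was 2.79 TPM and the higher replicate of Gp1bb 2.71 TPM, and for Treml1 and Gp5 these were 1.83 and 1.67 TPM. The deposited bounds overlapped in replicate 1 or replicate 2 for each neighbouring pair except Pf4 and Ppbp. In replicate 1, for example, they were 2.04 to 3.54 TPM for Gp9 and 1.98 to 3.23 TPM for Gp1bb. The order below Pf4 is therefore not firm.

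The sequences upstream of the chemokine genes and of the highest and lowest subunit genes of GPIb-IX-V are shown because these genes span the range of levels. Each is the 250 bases before the RefSeq transcription start in build GRCm38.p6, the same assembly as the mm10 of the files, read 5′ to 3′ along the strand of the gene. A run of bases soon after this start lay somewhere in a GENCODE transcript for 7 of the 8 members, so not every member passed this check. The start positions themselves were not compared, and distances below are from the RefSeq start alone. The windows lie at chr5:90772185-90772434 (plus strand), chr5:90768268-90768517 (plus strand), chr6:87777820-87778069 (plus strand) and chr11:70638872-70639121 (plus strand). Capitals mark matches to 3 motifs that were searched after the sequences had been seen: the GATA motif, spelled as AGATAA or TGATAA or AGATAG or TGATAG, and the ETS motif, spelled as AGGAAG or CGGAAG, each on either strand, and the box spelled as TATAAA on the strand of the gene, called TATA here. None of the matches shown overlaps another.
Pf4: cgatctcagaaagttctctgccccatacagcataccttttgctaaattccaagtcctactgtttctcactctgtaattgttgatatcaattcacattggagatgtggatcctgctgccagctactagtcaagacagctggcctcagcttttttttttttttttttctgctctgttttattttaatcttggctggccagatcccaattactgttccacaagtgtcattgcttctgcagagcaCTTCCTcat
Ppbp: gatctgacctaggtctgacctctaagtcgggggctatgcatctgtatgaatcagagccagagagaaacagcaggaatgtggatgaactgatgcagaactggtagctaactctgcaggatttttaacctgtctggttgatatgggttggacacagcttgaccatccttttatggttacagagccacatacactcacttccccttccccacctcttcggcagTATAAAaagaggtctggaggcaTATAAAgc
Gp9: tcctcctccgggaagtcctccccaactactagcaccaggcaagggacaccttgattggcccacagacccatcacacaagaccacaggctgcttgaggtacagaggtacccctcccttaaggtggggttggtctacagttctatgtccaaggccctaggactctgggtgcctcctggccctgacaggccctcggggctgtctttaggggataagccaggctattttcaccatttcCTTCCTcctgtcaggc
Gp1ba: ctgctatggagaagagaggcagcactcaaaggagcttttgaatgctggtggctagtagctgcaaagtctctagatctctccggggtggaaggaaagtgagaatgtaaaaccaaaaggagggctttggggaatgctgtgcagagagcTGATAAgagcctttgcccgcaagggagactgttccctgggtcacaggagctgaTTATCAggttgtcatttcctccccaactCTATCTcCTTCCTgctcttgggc

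A GATA match was present upstream of 4 of the 8 genes, against 26.5% of 32851 RefSeq windows of the same length. These were Gp1ba and Gp5 with 3 matches each, and Gp1bb and Gp6 with 1 each. An ETS match was present in 5 of 8, namely Pf4, Gp9, Gp1bb, Gp1ba and Gp5, against 39.2% of the windows. Gp1ba, Gp1bb and Gp5 held both motifs, which was the case in 9.2% of the windows. Ppbp was the member with a TATA match, beginning 30 and 8 bases before the start, against 7.6% of the windows. Treml1 had a match to none of the 3 motifs. A match describes the letters of the window, and binding was not measured.

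**Figure D2:**
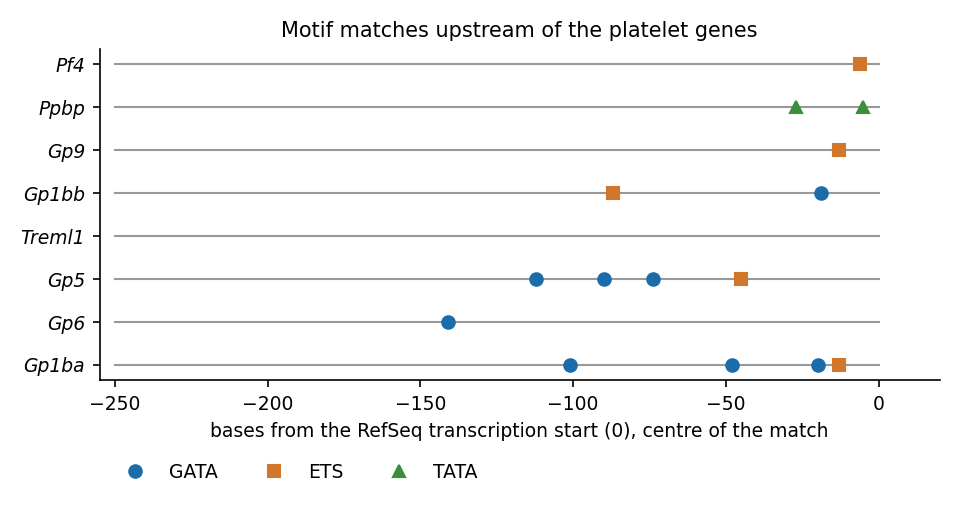
Positions of the GATA, ETS and TATA matches in the 250 bases before the RefSeq start of each platelet gene, with genes ordered by mean TPM from the top and distance in bases on the horizontal axis. Gp5 and Gp1ba hold 3 GATA matches each, and the ETS matches of Pf4, Gp9 and Gp1ba lie within 16 bases of the start.

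Pf4 encodes platelet factor 4, the chemokine CXCL4 of alpha granules, and lies on chromosome 5 (ENSMUSG00000029373, 90772435 to 90773383, plus strand, build mm10). It had 707 expected counts and 55.55 TPM in replicate 1, against 610 expected counts and 67.60 TPM in replicate 2. Its mean of 61.6 ± 8.52 TPM was above 87.8% of genes coding for protein. Ppbp, which encodes the precursor of the neutrophil-attracting chemokine CXCL7, lies 2371 bases upstream of Pf4 on the same strand (ENSMUSG00000029372, 90768518 to 90770063). It had 141 counts and 5.50 TPM in replicate 1, against 92 counts and 5.06 TPM in replicate 2, a mean of 5.28 ± 0.311 TPM. Pf4 exceeded its neighbour by 3.34 on the log2 scale of TPM in replicate 1 and by 3.74 in replicate 2 (3.54 ± 0.29). In mice Pf4 is also expressed by some tissue macrophages, and macrophage markers were present here. Of 10 such markers, 9 were at 1 TPM or more in both libraries, and their summed level was 182 TPM in replicate 1, against 201 TPM in replicate 2. None was at 0, and the lowest was Cd163 at 0.280 ± 0.0424 TPM. Their part in the level of Pf4 was not tested.

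The GPIb-IX-V subunits were lower than Pf4 and unequal among themselves, and Gp9 overlapped with Ppbp. Their summed level was 7.19 TPM in replicate 1, against 10.9 TPM in replicate 2. Gp1ba encodes the chain that carries the binding site for von Willebrand factor and lies on chromosome 11 (ENSMUSG00000050675, 70639122 to 70642036, plus strand). It was the lowest of the 8 genes, with 28 counts and 0.42 TPM in replicate 1, against 14 counts and 0.30 TPM in replicate 2, a mean of 0.360 ± 0.0849 TPM. Gp1bb encodes the chain bound to it by disulphide bonds and lies on chromosome 16 (ENSMUSG00000050761, 18620317 to 18622403, minus strand), with 2.43 TPM in replicate 1, against 2.71 TPM in replicate 2 (2.57 ± 0.198 TPM). Gp5, on chromosome 16 (ENSMUSG00000047953, 30307685 to 30310779, minus strand), encodes the thrombin-cleaved subunit GPV and had 1.55 TPM in replicate 1, against 1.67 TPM in replicate 2 (1.61 ± 0.0849 TPM). Gp9, on chromosome 6 (ENSMUSG00000030054, 87778072 to 87779768, plus strand), encodes GPIX, which the complex needs to reach the cell surface.

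Gp9 was the member whose replicates differed most. It had 52 counts and 2.79 TPM in replicate 1, against 82 counts and 6.22 TPM in replicate 2, although replicate 2 was the shallower library. The mean was 4.50 ± 2.43 TPM, an SD of 53.8% of the mean. The deposited credibility bounds ran between 2.04 and 3.54 TPM for replicate 1 and between 4.77 and 7.39 TPM for replicate 2 and did not overlap. Bounds apart in that direction were seen in 7.26% of genes from 1 to 10 TPM. Gp9 ranked below Pf4 and Ppbp in replicate 1, against directly below Pf4 in replicate 2.

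Ratios within a library cancel its scaling. On the log2 scale of TPM, Gp1bb exceeded Gp1ba by 2.53 in replicate 1 and 3.18 in replicate 2 (2.85 ± 0.45), Gp9 exceeded Gp1ba by 3.55 ± 1.16 and Gp5 exceeded Gp1ba by 2.18 ± 0.42. Treml1 exceeded Gp1ba by 2.38 ± 0.33. A direction was taken to hold where the replicates shared it and the mean was over 2 SD from 0, which was so in 5 of 7 pairs. It did not hold for Gp9 over Gp1bb, at 0.20 in replicate 1 and 1.20 in replicate 2, nor for Gp6 over Gp1ba, at 0.56 and 1.54. Both of these turn negative, to -0.49 and -0.22, when counts are not divided by length. The denominator of most pairs rests on the 28 and 14 counts of Gp1ba, which limits how well the ratios are known.

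Gp6 and Treml1 lay among the subunits. Gp6, on chromosome 7 (ENSMUSG00000078810, 4363965 to 4397744, minus strand), encodes the receptor GPVI, which signals through the gamma chain encoded by Fcer1g. It had 17 counts in each library, or 0.62 TPM in replicate 1, against 0.87 TPM in replicate 2 (0.745 ± 0.177 TPM). Its deposited bounds, between 0.359 and 0.935 TPM for replicate 1 and between 0.514 and 1.33 TPM for replicate 2, overlapped. Treml1, on chromosome 17 (ENSMUSG00000023993, 48359916 to 48367176, plus strand), encodes a receptor stored in alpha granules and shown on activated platelets. It had 1.86 TPM in replicate 1, against 1.83 TPM in replicate 2 (1.85 ± 0.0212 TPM), the closest pair of values among the members.

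Of the 6 platelet genes with a mean of 1 TPM or more, 0 were 2-fold apart in log2(TPM + 1), against 2.67% of the 15493 genes at that level and 5.45% of the 6238 genes from 1 to 10 TPM. Differences are replicate 1 minus replicate 2. They were -0.93 for Gp9, -0.28 for Pf4, -0.11 for Gp1bb, -0.07 for Gp5, 0.02 for Treml1 and 0.10 for Ppbp. The sign for Gp1bb was positive when counts were scaled by TMM (0.05) or DESeq2 size factors (0.06). The median over these 6 genes was -0.09, against 0.00 over all genes compared. It was -0.06 over genes from 1 to 10 TPM, where 5 of the 6 lie. A difference as large as that of Gp9, in either direction, was seen in 6.14% of genes from 1 to 10 TPM, and one as large as that of Pf4 in 8.24% of genes from 10 to 100 TPM. The pseudocount understates the difference of low genes: with a pseudocount of 0.1 Gp9 was past 2-fold, lower in replicate 1, as were 3.25% of all genes compared and 7.05% of those from 1 to 10 TPM.

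**Figure D3:**
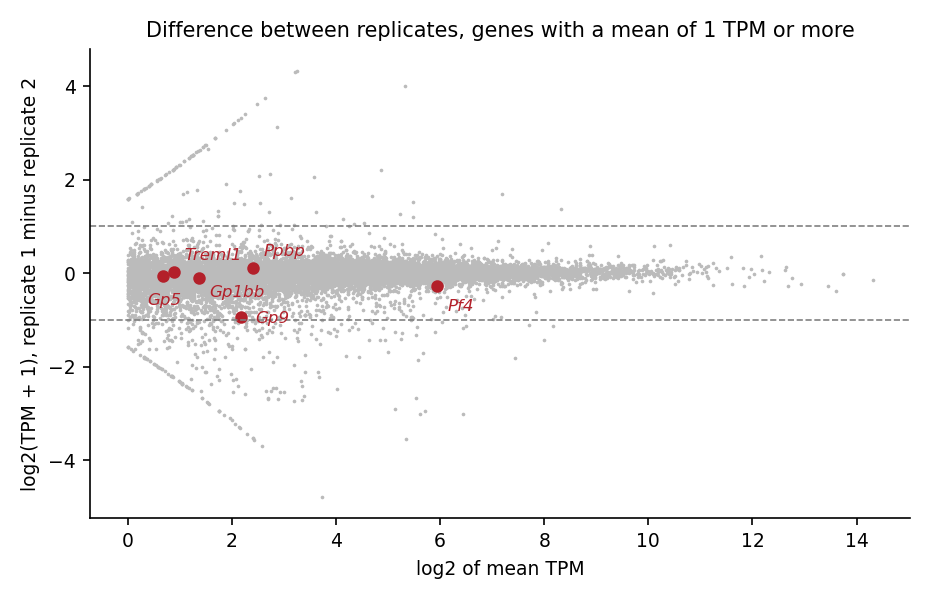
Difference in log2(TPM + 1) between the libraries, as replicate 1 minus replicate 2, against log2 mean TPM for the 15493 genes with a mean of 1 TPM or more, with platelet genes in red and dashed lines at 2-fold. Gp9 lies just inside the lower line at -0.93, Pf4 at -0.28, and the other 4 platelet genes between -0.11 and 0.10.

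Counting error was set beside these differences by dividing the counts of replicate 1 by those of replicate 2, each per total of its library, with an exact 95% Clopper-Pearson interval. The ratio was 0.443 for Gp9 (0.307 to 0.635) and 0.810 for Pf4 (0.726 to 0.904). Intervals below 1 were seen in 2 of the 6 platelet genes with a mean of 1 TPM or more, against 20.1% of all genes at that level, 21.5% of those from 1 to 10 TPM and 17.8% of those from 10 to 100 TPM. Deposited bounds that were apart and lower in replicate 1 were likewise seen in 2 of 6, against 6.71% of all genes at that level, 7.26% of those from 1 to 10 TPM and 5.41% of those from 10 to 100 TPM. For the other 6 members the interval held 1, and it was widest for Gp1ba, at 1.40 (0.711 to 2.87), and for Gp6, at 0.699 (0.335 to 1.46). The differences of these 6 genes were not detectable at this depth. The intervals allow for counting error alone and treat reads as independent. Reads without molecular identifiers are not independent molecules, so the intervals may be too narrow.

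**Figure D4:**
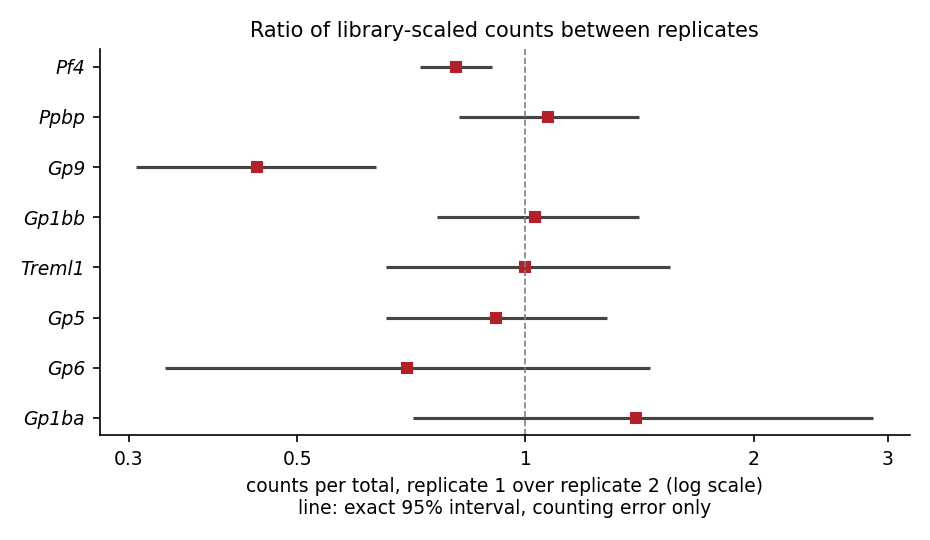
Ratio of counts per library total, replicate 1 over replicate 2, for each platelet gene (log axis), with lines for the exact 95% interval from counting error and a dashed line at 1. The intervals of Gp9 and Pf4 lie below 1, and those of the other 6 genes hold it.

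Markers of other cell types also differed between the pools, and their part in the differences of Gp9 and Pf4 was not tested. Hepatocyte markers were all lower in replicate 1, 8 of 8 by 2-fold or more, with a summed level of 63.6 TPM in replicate 1, against 519 TPM in replicate 2. Erythroid markers were lower in replicate 1 in 8 of 8 genes compared, by 2-fold or more for Klf1 and Hemgn, with sums of 189 TPM in replicate 1, against 233 TPM in replicate 2. Granulocyte and mast cell markers summed to 52.1 TPM in replicate 1, against 111 TPM in replicate 2, and S100a9, Mpo, Ngp and Camp were 2-fold lower in replicate 1. No marker of the hepatocyte, erythroid and granulocyte lists was at 0, and the lowest were Fgb, Rhag and Fcer1a. Markers of T cells and thymus, a list added after such genes were seen to differ, summed to 39.8 TPM in replicate 1, against 101 TPM in replicate 2. All 10 compared were lower in replicate 1, 6 of them by 2-fold or more (Cd3d, Cd3g, Lck, Ptcra, Prss16 and Tbata), and none of the 12 listed was at 0, the lowest being Cd4. Macrophage markers were lower in replicate 1 in 9 of 9 genes compared, but 0 were 2-fold apart. Progenitor markers summed to 289 TPM in replicate 1, against 278 TPM in replicate 2. Most of these sums was Cd34, at 177.72 TPM in replicate 1, against 171.74 TPM in replicate 2, and the lowest was Flt3 at 0.160 ± 0.0141 TPM. Endothelial markers, which summed to 924 TPM in replicate 1, against 910 TPM in replicate 2, were lower in replicate 1 in 3 of 8, and 50.2% of all genes compared were lower there. That share was 60.2% among genes from 1 to 10 TPM and 44.6% among those from 10 to 100 TPM. In either direction, 2.67% of genes with a mean of 1 TPM or more were 2-fold apart, and 5.45% of those from 1 to 10 TPM.

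Transcript tables give 1 transcript for 6 of the 8 genes, so forms could be compared for Gp1ba and Gp1bb alone. Gp1ba-201 took 72.39% of the TPM of Gp1ba in replicate 1 and 74.79% in replicate 2, and Gp1ba-202 took the rest. Gp1bb-202, listed at 1847 nt, took 100% of Gp1bb in replicate 1 and 79.69% in replicate 2, and the shorter Gp1bb-201, of 645 nt, took 0% in replicate 1 and 20.31% in replicate 2. By the posterior means deposited beside these values, Gp1bb-201 took 11.54% in replicate 1 and 26.51% in replicate 2. The first of these splits rests on 0 and 5.56 expected counts for Gp1bb-201. It also sets the effective length of the gene, 1748 nt in replicate 1 and 1504 nt in replicate 2, so Gp1bb was lower in replicate 1 by TPM and yet had a ratio of 1.03 by counts. Gp1bb further shares 1902 bases of its span with Sept5, a septin gene on the same strand, which had 16.91 TPM in replicate 1, against 18.00 TPM in replicate 2. How reads in the shared part were split is set by the estimation of the authors, and the level of Gp1bb is uncertain.

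The transcription factors that drive megakaryocyte development were present at varied levels. Of 12 listed, 9 reached 1 TPM in each replicate, against 61.5% of genes coding for protein, and the list median was 9.05 ± 0.141 TPM. The highest were Meis1 at 81.8 ± 3.40, Fli1 at 28.3 ± 1.32 and Lmo2 at 24.6 ± 2.73 TPM, which are not restricted to blood cells. Zfpm1, the cofactor FOG1 of GATA1, was lowest at 0.830 ± 0.198 TPM. Next above it were Gfi1b at 0.930 ± 0.368, Tal1 at 1.34 ± 0.0636 and Gata1 at 1.63 ± 0.990 TPM. Thpo, which encodes thrombopoietin, the hormone that drives platelet production, was below 1 TPM in both libraries, at 0.700 ± 0.0707 TPM. Among ligands of the platelet receptors the matrix genes were highest, with Col3a1 at 1341 ± 7.23, Col1a1 at 1090 ± 145 and Fn1 at 158 ± 1.74 TPM. Vwf, which encodes the von Willebrand factor bound by GPIb-IX-V, was at 18.3 ± 0.382 TPM. All 6 on that list exceeded 1 TPM, and Itgam, an integrin chain that binds GPIb, was lowest at 1.28 ± 0.184 TPM.

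For signalling by GPVI and by the podoplanin receptor CLEC-2, 10 of 10 listed genes, CLEC-2 and its ligand included, were at 1 TPM or more in both libraries, with a median of 4.75 ± 1.20 TPM. Pdpn, the ligand of CLEC-2 and also a gene of alveolar type 1 cells, was at 52.7 ± 5.52 TPM, Fcer1g at 47.0 ± 3.84 TPM and the kinase gene Lyn at 41.4 ± 0.559 TPM. Clec1b, which encodes CLEC-2 itself, was lowest at 2.75 ± 0.495 TPM, close to the level of Gp1bb. All 10 were lower in replicate 1, as were 60.2% of genes from 1 to 10 TPM and 44.6% of those from 10 to 100 TPM. Of the 10, 0 were lower by 2-fold in log2(TPM + 1), although Lat, at -0.99 on that scale, had 2.45 TPM in replicate 1, against 5.87 TPM in replicate 2. Of 9 receptors for platelet agonists, 7 passed 1 TPM, led by the thrombin receptor gene F2r at 104 ± 1.00, the thromboxane receptor gene Tbxa2r at 15.9 ± 0.559 and the ADP receptor gene P2ry1 at 4.79 ± 0.00707 TPM, and Adra2a was lowest at 0.0800 ± 0.0141 TPM.

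Among 11 granule genes, 9 passed 1 TPM in both libraries, and the highest were Serpine2 at 299 ± 17.9, Thbs1 at 146 ± 18.0 and Srgn at 44.4 ± 1.12 TPM, all of them expressed outside platelets too. Selp, the P-selectin gene of platelets and endothelium, was lowest at 0.150 ± 0.127 TPM. Of 12 cytoskeletal and signalling genes, all were at 1 TPM or more, from Cd9 at 319 ± 28.4, Flna at 312 ± 1.44 and Gng11 at 143 ± 3.31 TPM to the lowest, Rgs18, at 1.52 ± 0.219 TPM. Tubb1, the beta tubulin of platelets and so the most specific of that list, was at 5.18 ± 0.665 TPM, close to Ppbp.

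**Figure D5:**
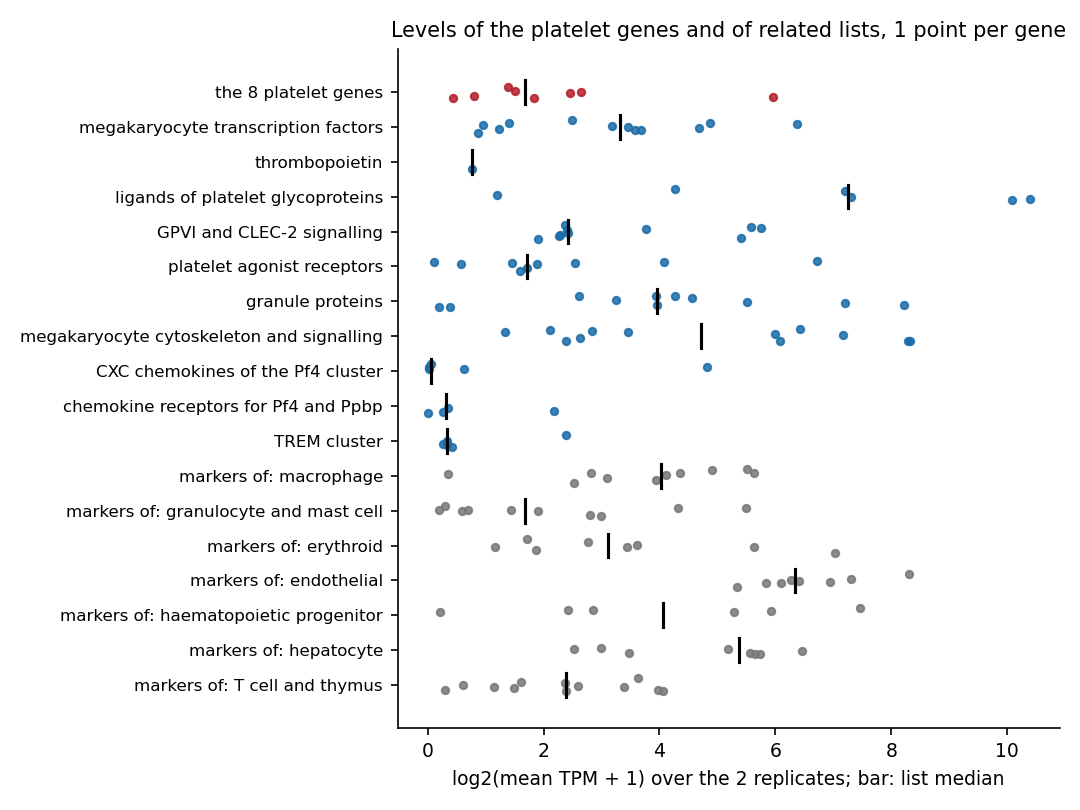
Levels as log2(mean TPM + 1) over the 2 replicates, 1 point per gene, for the 8 platelet genes (red), lists of related genes (blue) and markers of other cell types (grey), with a bar at each list median. Pf4 lies far above the other platelet genes, whose levels fall among those of the agonist receptors and below the medians of the granule and cytoskeletal lists.

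Other chemokine genes near Pf4 and Ppbp were low apart from 1. Cxcl15, a chemokine of lung epithelium, was at 21.28 TPM in replicate 1, against 33.50 TPM in replicate 2. Cxcl1 was at 0.535 ± 0.318 TPM, Cxcl3 had 2 counts in replicate 1 and 0 in replicate 2, and Cxcl5, the lowest, had 0 counts in replicate 1 and 1 in replicate 2. Receptors for these chemokines were low as well. Ccr1 was at 3.32 TPM in replicate 1, against 3.75 TPM in replicate 2, Cxcr2, the receptor for processed Ppbp, at 0.270 ± 0.127 TPM and Cxcr3 at 0.205 ± 0.00707 TPM. Cxcr1 had 0 counts in both libraries, which allows a level of at most 0.0965 TPM (replicate 1) or 0.136 TPM (replicate 2), taking 3 counts as the limit. In the TREM cluster around Treml1, Trem2, a macrophage receptor gene, was at 3.79 TPM in replicate 1, against 4.72 TPM in replicate 2, and it was the other gene of that cluster to pass 1 TPM. Trem3, Treml4 and Trem1 followed, each under 0.5 TPM in both libraries, and Treml2 was lowest at 0.195 ± 0.0636 TPM.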

How the data were processed

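According to notes deposited beside the tables, the authors quantified each library on mouse build mm10 with GENCODE annotation M4; the aligner and quantifier are not given in the sources used here. Per the labels, each library was made from 10 ng of RNA above 200 nt, with spike-ins. The expected counts the authors deposited are estimated reads per gene, with reads that match several genes divided among them. The deposited TPM are scaled by effective length over every row of a table, spike-ins included. The percent values the authors deposited are the share of each transcript in its gene. The score columns deposited beside TPM are credibility bounds within a library.

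Symbols and coordinates came from GENCODE M21, which matched 42462 of 43346 identifiers without version, and promoters from RefSeq (GRCm38.p6). The members and lists were chosen with earlier results of these data known. All 8 members are named, and of each other list of related genes the 3 highest, the lowest, those at 0 and those 2-fold apart. Of the cell type marker lists, sums, counts and the last 3 kinds are given. Tubb1, Vwf, Lat, Gata1, Nfe2, Tal1, Gfi1b, Cd34 and the T cell list were chosen after values were seen. The motifs and the promoters of Ppbp and Gp1ba were likewise chosen after values or sequences were seen. A further listed gene is not reported here. Expected counts were rounded for edgeR 4.0.16 (TMM) and DESeq2 1.42.0 (size factors) in R 4.3.3, used as alternative scalings alone. Other steps used Python 3.11.15, NumPy 2.4.6, pandas 2.3.3, SciPy 1.17.1 and matplotlib 3.10.9. The fold count and scalings were run on simulated counts in which 200 genes had a known change. That change was larger than 2-fold, and the simulated spread was the same for all genes. The run therefore could not show how well 2-fold differences of genes with few counts are found.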

Additional observations from a re-analysis of the deposited data

How the results depend on the processing

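With 2 libraries of 1 group no outlier or difference between groups could be assessed, and depth limits Gp1ba and Gp6 most, at 14 to 28 counts a library. No paired analysis was possible because the series has a single group. The summed level stayed within 1 SD or 1.5-fold of the value given under all settings tried. The count of 6 members at 1 TPM or more became 7 at a minimum of 0.5 TPM and 4 at 2 TPM, and was otherwise unchanged. Leaving out replicate 1 or 2 gave sums of 86.3 or 70.7 TPM and medians of 2.27 or 2.15 TPM. With 2 replicates, leaving out 1 cannot move a mean by more than 1 SD. Those settings therefore could not test the stability of sums, medians, levels or ratios. The median of 2.21 TPM became 2.33 TPM when TPM was rescaled to gene rows and 2.32 TPM with counts per annotated length. The count of 0 members 2-fold apart became 1 (Gp9) with a pseudocount of 0.1 or 0.5 or a threshold of 1.5-fold. The count stayed at 0 with TMM scaling, DESeq2 size factors, posterior mean TPM, TPM rescaled to gene rows and no filter on low values. A cut-off of 5 TPM on the mean also gave 0, but it leaves out Gp9, whose mean was 4.50 TPM. That cut-off therefore could not test the result for Gp9. Of 35 alternative values of the ratios between members, those with a replicate left out included, 29 moved by less than 1 SD. The 6 that moved further were those with counts not divided by length. Of 40 alternative levels of single members, those with a replicate left out included, 4 moved by more than 1 SD, those of Gp5 and Treml1. None of 48 differences between replicates moved beyond the reach of its counting interval. Within that reach Gp1bb turned from -0.11 to 0.05 with TMM and 0.06 with DESeq2 size factors, and a pseudocount of 0.1 took Gp1ba to 0.38 and Gp6 to -0.43. With posterior means Gp1ba-201 took 64.8% of Gp1ba and Gp1bb-201 took 19.0% of Gp1bb, against 10.2%.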

Other observations

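A few genes of the megakaryocyte lists that were chosen after their values were seen differed between the pools in the same direction as Gp9. Lat, the adaptor of GPVI signalling described above, is also expressed by T cells. The T cell list was added after such genes were seen to differ, so its direction was known beforehand. Its part in the difference of Lat was not tested. Gata1, which megakaryocytes share with red cells, was at 0.93 TPM in replicate 1, against 2.33 TPM in replicate 2, and Nfe2, also shared, at 3.58 TPM in replicate 1, against 5.72 TPM in replicate 2. These are not typical of the transcription factors, of which 5 of 10 compared were lower in replicate 1, with a median difference of -0.02. Tubb1 and the members Ppbp, Treml1 and Gp1ba did not follow, with Tubb1 at 5.65 TPM in replicate 1, against 4.71 TPM in replicate 2. The count ratio intervals of the 6 members other than Gp9 and Pf4 held 1. The reason for these differences was not tested.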
